A study of Homo sapiens with 36 samples.

Results

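Nucleotide excision repair was followed here through 10 human genes that were listed by name and measured in A2780 ovarian cancer cells: XPC, RAD23B, DDB1, ERCC6, ERCC8, XPA, ERCC2, ERCC3, ERCC1 and ERCC5. All 10 were found by symbol among the 57820 genes of the deposited read count table, and all 10 passed the filter on low counts in each of the 16 comparisons. The list was set by gene name and not by any measured value, although earlier results of these data were known when it was drawn up. Nucleotide excision repair cuts out a short stretch of a damaged DNA strand and fills the gap from the intact strand, and it is the main route by which cells remove the intrastrand crosslinks that cisplatin and carboplatin leave in DNA. In global repair, XPC, held stable by RAD23B, senses the distorted helix, and DDB1 takes part both in a damage sensor with DDB2 and as the adaptor of CUL4 ubiquitin ligases. In transcription-coupled repair, the ATPase ERCC6 (CSB) acts at a stalled RNA polymerase II and ERCC8 (CSA) is the substrate receptor of a CUL4 and DDB1 ligase. Both routes then use TFIIH, whose ERCC3 (XPB) and ERCC2 (XPD) subunits open the DNA, the scaffold XPA, and a pair of nucleases, ERCC1 with its catalytic partner ERCC4 (XPF) upstream of the lesion and ERCC5 (XPG) downstream of it.

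The study sequenced mRNA of 3 related lines, each in 4 conditions with 3 libraries, which makes 12 conditions and 36 libraries. The wt line was the platinum-sensitive parental A2780, cis was its isogenic derivative selected by long exposure to cisplatin, and cis SSP was a population that grew out of cis under serine and glycine deprivation and had regained serine synthesis. Media were either complete or free of serine and glycine (-SG), and each line had carboplatin (carbo) or no drug in both of them, a platinum drug that makes the same kind of DNA crosslinks as cisplatin. The labels give the dose as 6 M, which is no usable concentration for cells, so the dose is taken as not given, and they give no time of harvest. Deprivation experiments used a homemade medium with dialysed serum, made with or without serine and glycine, while routine culture used commercial medium, and the sources used here do not name which of these the sequenced cells in complete medium had. Each line is 1 culture history, cis SSP being 1 derived population. The 3 libraries of a condition are described as technical replicates, so the p-values here measure the spread between these libraries only.

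Library totals ran from 13074937 to 20441582 counts on genes. Levels are given as CPM, in which a gene's reads are set against the TMM-adjusted size of their library, and "called" means an adjusted p under 0.05 in edgeR's quasi-likelihood test. The cis SSP library 25 (replicate 1) and the cis SSP -SG library 32 (replicate 2) stood apart from the other libraries of their own conditions: the mean chi-square between replicates was 103 to 123 in pairs with either of them and 1.20 to 25.6 in all other pairs. Among the latter, 24.6 and 25.6 were the values of wt -SG carbo library 11 (replicate 2), beside 1.20 between the other libraries of that condition. The cis -SG carbo libraries 23 and 24 had 17.9% and 14.9% of their counts outside annotated exons, against 9.31% or less elsewhere. The comparisons of the 10 genes whose own groups hold library 23, 24, 25 or 32 are therefore given with and without them. A single fit over all 36 libraries, used below as an alternative, holds these 4 in every comparison and was not repeated without them. For ERCC1 between cis and wt its SE was 0.14, against 0.035 in the fit of those groups alone. The part of the 4 libraries in this was not tested. As a check of the labels, CDKN1A, a target of p53, was called higher with carboplatin in complete medium in each line, by 3.67 (wt), 1.83 (cis) and 2.70 (cis SSP) on the log2 scale. PHGDH, the first enzyme of serine synthesis, was called lower in cis than in wt (-1.66) and higher in cis SSP than in cis (1.06). Of 8 epithelial and ovarian markers, KRT18 was the highest, with a median of 14.3 CPM, while PAX8, WT1, EPCAM, KRT7, MUC16 and CDH1 had medians under 1 CPM, so the markers that define ovarian epithelium were nearly absent. Of 7 markers of other cell types, CD3E had no count in any library, PTPRC, CD68 and VWF stayed at or below 0.350 CPM, and the stromal genes COL1A1, DCN and LUM made up most of their sum.

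The promoter sequences of ERCC1, XPC and ERCC2 are shown because these 3 genes carried the clearest differences between lines and treatments described below. RefSeq start sites (table on GRCh38.p14) gave 15 windows of 250 bases upstream of a start for the 10 genes, and each matched a single place in GRCh37, the build of the deposited counts, whose coordinates are given here. Sequences run 5′ to 3′ on the gene's strand, and capitals mark every match, on either strand, to any of 7 motifs. These were the GC box, written GGGCGG, the CCAAT box, which its letters name, and the TATA box, searched for as TATAAA. The others were an E box read as CACGTG, the cAMP response element TGACGTCA, the binding site of the factor AP-1 in the form TGANTCA, and a pair of p53 core motifs, CATGNNNNNNCATG.
ERCC1, upstream of the start of the canonical transcript, GRCh37 chr19:45927176-45927425, minus strand: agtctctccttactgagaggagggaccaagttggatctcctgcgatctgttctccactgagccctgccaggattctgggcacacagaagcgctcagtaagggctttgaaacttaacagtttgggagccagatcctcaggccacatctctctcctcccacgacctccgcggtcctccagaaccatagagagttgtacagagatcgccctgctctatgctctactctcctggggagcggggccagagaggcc
ERCC1, upstream of a start site 389 bases further downstream, GRCh37 chr19:45926787-45927036, minus strand: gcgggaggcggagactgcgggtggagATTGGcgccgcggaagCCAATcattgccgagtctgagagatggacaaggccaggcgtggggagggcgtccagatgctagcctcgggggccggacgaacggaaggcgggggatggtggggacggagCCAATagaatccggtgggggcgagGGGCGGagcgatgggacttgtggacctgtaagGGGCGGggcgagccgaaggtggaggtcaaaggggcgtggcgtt
XPC, GRCh37 chr3:14220102-14220351, minus strand: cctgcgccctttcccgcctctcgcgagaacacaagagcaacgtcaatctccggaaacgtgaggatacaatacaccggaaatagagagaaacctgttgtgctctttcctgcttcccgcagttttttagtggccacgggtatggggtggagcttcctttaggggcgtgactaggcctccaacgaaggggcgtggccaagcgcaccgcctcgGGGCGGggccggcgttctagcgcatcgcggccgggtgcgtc
ERCC2, GRCh37 chr19:45873832-45874081, minus strand: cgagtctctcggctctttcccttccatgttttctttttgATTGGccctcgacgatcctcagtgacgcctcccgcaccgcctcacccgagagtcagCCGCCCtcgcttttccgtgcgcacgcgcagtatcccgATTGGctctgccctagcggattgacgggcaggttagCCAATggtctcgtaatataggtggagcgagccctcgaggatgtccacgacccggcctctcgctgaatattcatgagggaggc
The first ERCC1 window held none of these motifs, and the second held GC and CCAAT boxes. Another ERCC1 window, whose start site lies at -27630 bases from the canonical start, is not shown and held none of them. The XPC window held a GC box, and the ERCC2 window a GC box and CCAAT boxes. Over all 35116 windows of the table, 42.6% held a GC box, 32% a CCAAT box, 10.7% a TATA box, 6.34% the E box, 1.65% the cAMP response element, 6.57% the AP-1 site and 0.296% the p53 pair. Of the 15 windows of the 10 genes, 8 held a GC box, 4 a CCAAT box and 1 the E box, and none held any of the other 4 motifs. A match is a description of the letters, and the absence of a match says nothing about binding of a factor.

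Per kilobase of canonical transcript, the mean level over all conditions put the DNA damage adaptor DDB1 first, at 126 CPM per kb, and RAD23B second at 82.8 CPM per kb. The TFIIH subunit ERCC3 (46.5), the nuclease partner ERCC1 (42.3), the sensor XPC (25.1) and the helicase ERCC2 (23.7) followed on the same scale. XPA (7.79), ERCC5 (1.82), ERCC8 (1.81) and ERCC6 (0.883) were the lowest. The transcript lengths came from a later GENCODE annotation than the one used for counting, and this order depends on them. By these lengths both genes of the transcription-coupled branch were low per kb, the place of ERCC8 resting on a canonical transcript of 9414 bases. The nuclease ERCC5 was low as counted, but its level is uncertain. It shares 91.7% of its canonical bases with BIVM-ERCC5, as given below, so reads may have been left uncounted. The low genes had few reads: ERCC6 had 43 to 283 counts a library and ERCC5 56 to 226, against 6282 to 11518 for DDB1. The precision of the low genes is therefore limited by counting, and intervals cover the spread between libraries only.

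The 10 genes differed in how far their condition means spread over the 12 conditions. ERCC5 spread most, 3.56-fold between wt (11.5 ± 1.37 CPM, SD, n = 3) and cis -SG (3.23 ± 0.520 CPM), over the reads that were counted for it. ERCC6 spread 2.96-fold, from 4.01 ± 0.701 CPM in cis to 11.9 ± 2.72 CPM in wt -SG. ERCC1 spread 2.59-fold, from 86.8 ± 27.3 CPM in cis SSP, where library 25 stood high, to 225 ± 18.8 CPM in wt -SG carbo, and without libraries 25 and 32 its spread was 3.17-fold, above that of ERCC6. These 3 genes and ERCC2 thus varied the most, 2 of them being the nuclease genes and the other pair a TFIIH helicase and the transcription-coupled ATPase. ERCC2 spread 2.31-fold, from 64.0 ± 2.29 CPM in wt -SG carbo to 148 ± 2.27 CPM in cis. ERCC8 spread 1.96-fold, XPA 1.77-fold, XPC 1.68-fold, RAD23B 1.50-fold, ERCC3 1.45-fold and DDB1 1.34-fold. The XPA spread rested on libraries 25 and 32, without which it was 1.50-fold, under those of XPC and RAD23B (1.54-fold). When the 12 conditions were put in order of a gene's mean, most neighbours in that order had overlapping libraries: of 11 neighbouring pairs, between 0 and 5 per gene did not overlap.

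**Figure D1:**
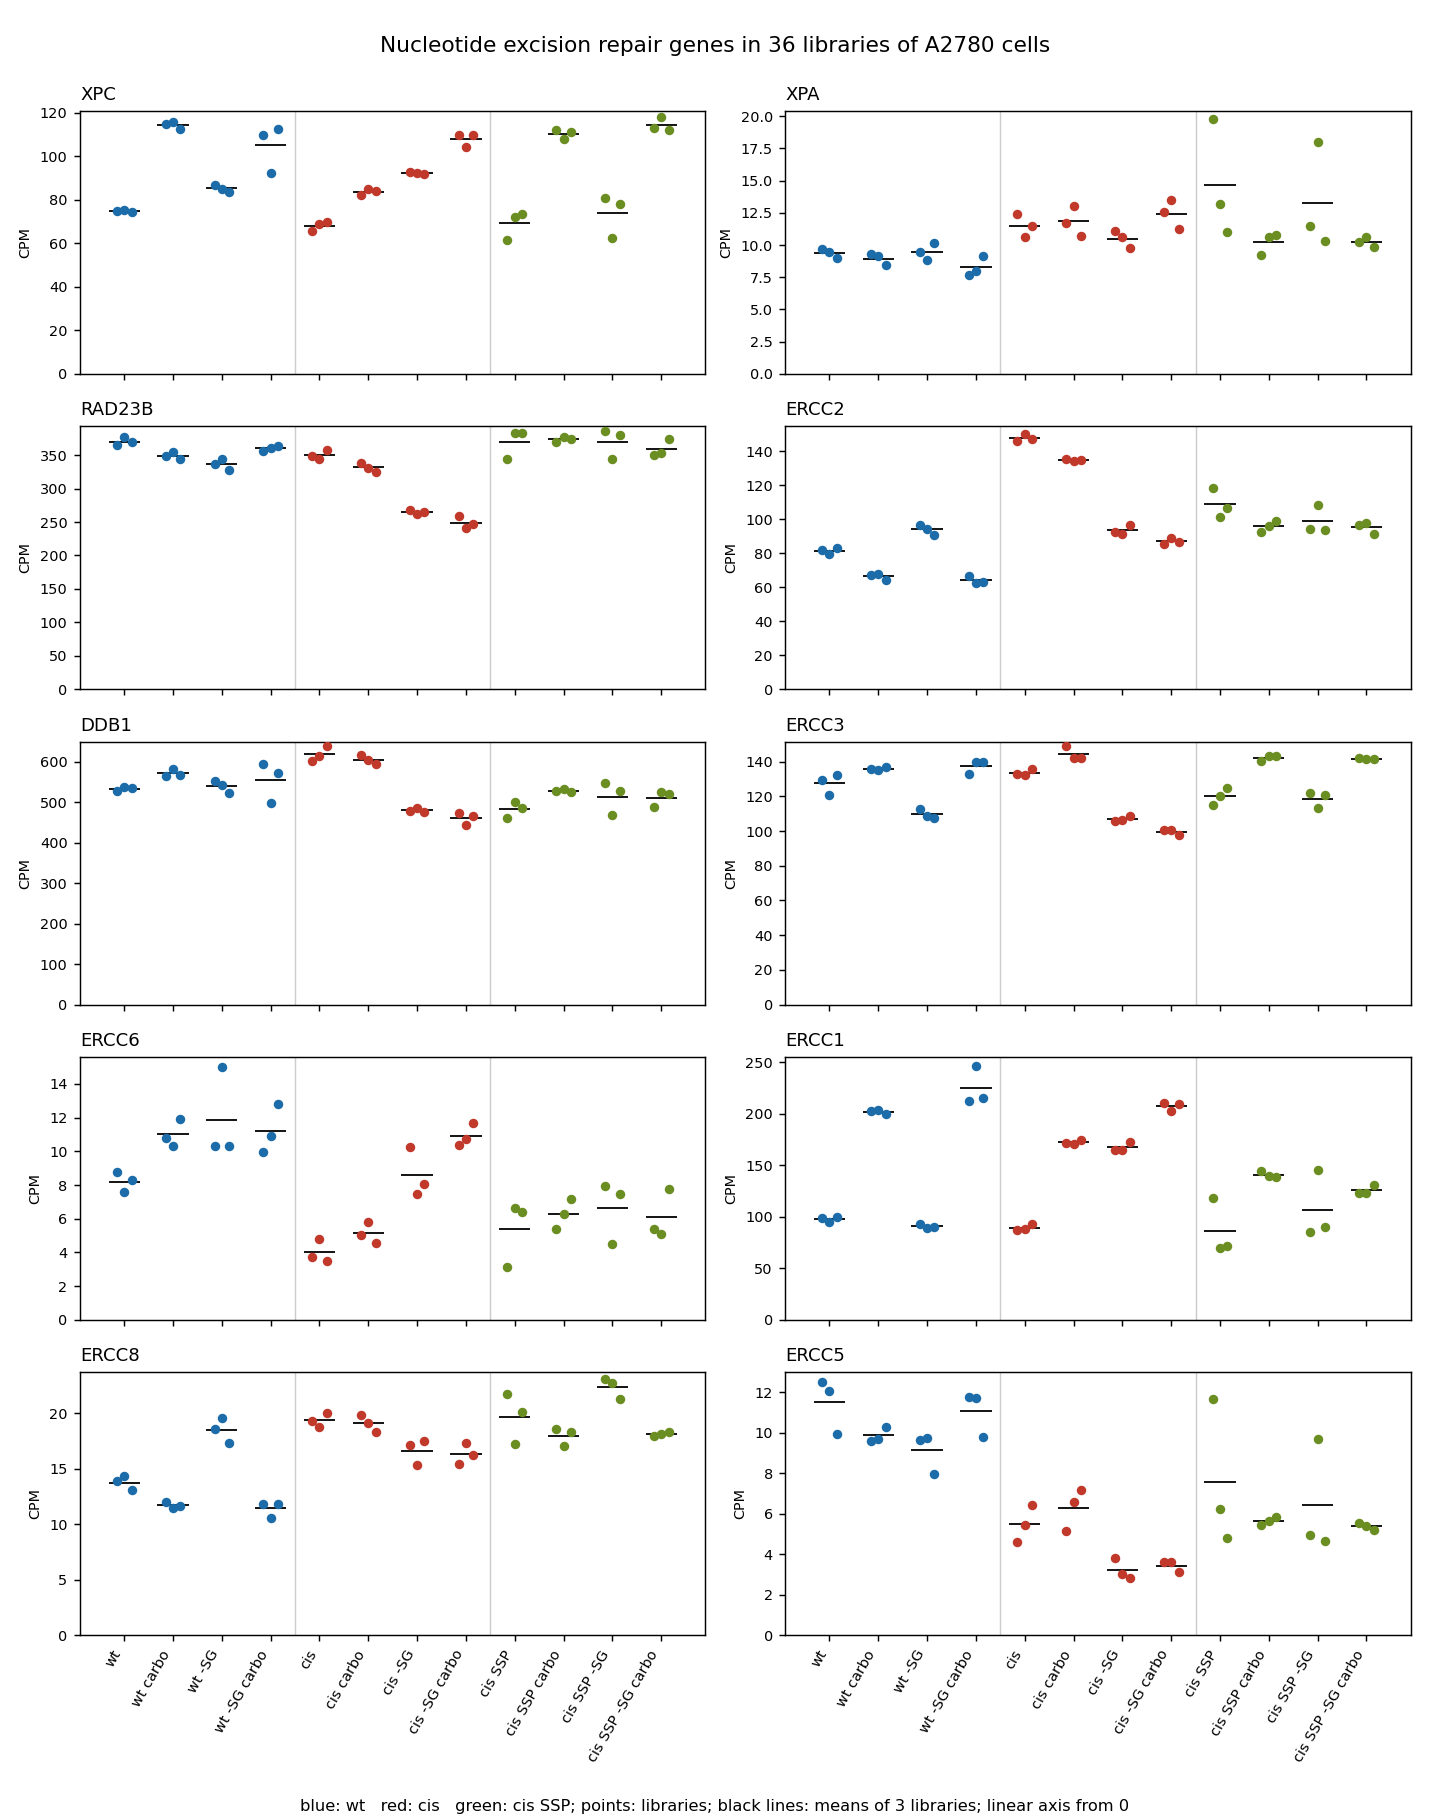
Level of each of the 10 genes in CPM (y axis, 1 panel a gene) in every library (points) of the 12 conditions (x axis), in blue for wt, red for cis and green for cis SSP, with a black line at the mean of the 3 libraries. ERCC1 stands near 200 CPM in wt carbo (200.1 to 204) and under 100 CPM in wt (95.5 to 99.6), and ERCC2 stands highest in cis (146 to 150.2).

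The question of the first comparison was what differs between the resistant and the sensitive line without drug in complete medium. The helicase gene ERCC2 was higher in cis, ERCC5 and ERCC6 were lower, and the other genes differed little or in smaller steps. ERCC2 (ENSG00000104884, GRCh37 chr19:45853095-45874176, minus strand) stood at 81.6, 79.4 and 83.3 CPM in the 3 wt libraries and 146, 150.2 and 147 CPM in the 3 cis libraries. Every cis library was above every wt library, in bulk RNA where a change in some cells and in all cells cannot be told apart, and the level was 1.79-fold higher, a log2 fold change of 0.84 ± 0.032 (SE, edgeR adjusted p = 6.22e-27). ERCC5, the downstream nuclease (GRCh37 chr13:103498181-103528345, plus strand), stood at 12.5, 12.1 and 9.95 CPM in wt and 4.63, 5.45 and 6.45 CPM in cis. The 2 groups did not overlap, and ERCC5 was 2.10-fold lower in cis, a log2 fold change of -1.07 ± 0.11 (SE, edgeR adjusted p = 2.53e-11). ERCC6, the ATPase of transcription-coupled repair (GRCh37 chr10:50662214-50747584, minus strand), stood at 8.75, 7.60 and 8.27 CPM in wt and 3.71, 4.81 and 3.50 CPM in cis. These groups did not overlap either, and ERCC6 was 2.06-fold lower in cis, at -1.04 ± 0.13 (SE, edgeR adjusted p = 4.63e-10). ERCC8, the partner of ERCC6 in the transcription-coupled branch, moved the other way, with 13.9, 14.3 and 13.1 CPM in wt and 19.3, 18.8 and 20.1 CPM in cis, a log2 fold change of 0.47 ± 0.073 (SE, edgeR adjusted p = 1.43e-07).

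Among the damage recognition genes, XPC was lower in cis at -0.16 ± 0.038 (SE, edgeR adjusted p = 3.11e-04) and RAD23B was lower at -0.10 ± 0.023 (SE, edgeR adjusted p = 1.95e-04), while DDB1 was higher at 0.19 ± 0.024 (SE, edgeR adjusted p = 6.27e-10). XPA was higher in cis at 0.27 ± 0.091 (SE, edgeR adjusted p = 0.00699) and ERCC1 was lower at -0.15 ± 0.035 (SE, edgeR adjusted p = 1.43e-04). These 5 differences, though called, were each under 0.3 on the log2 scale, that is small beside those of ERCC2, ERCC5 and ERCC6. ERCC3, the TFIIH translocase, did not pass the test, with a log2 fold change of 0.048 and a 95% interval of -0.015 to 0.11. In total 9 of the 10 genes were called, 4 higher and 5 lower, beside 78.5% of the 14431 genes tested, 39.4% higher and 39.1% lower, so that a call by itself was the common state of a gene in this comparison. Over the 10 genes the median log2 fold change was -0.025, and over all genes tested it was -0.0041. A single fit over the 36 libraries gave another count: 5 of the 10 genes were called (DDB1, ERCC6, ERCC8, ERCC2 and ERCC5), beside 57.1% of all genes tested.

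ERCC2 and ERCC1 lie close together on chromosome 19 but differed in direction between cis and wt. Of the 317 other tested genes within 10 Mb of ERCC2 with a mean of at least 5 CPM, 89 were called higher and 159 lower, with a median log2 fold change of -0.13, and ERCC2 was above 96.2% of them. By the same count ERCC1 lay in the middle of its 321 neighbours, above 46.7% of them. ERCC5 stood in a different setting: of the 33 such genes within 10 Mb of it on chromosome 13, 30 were called lower in cis and 3 higher, the median was -0.97, and ERCC5 was above 36.4% of them. The lower ERCC5 level in cis was thus shared with 30 of the 33 genes counted around it, as a description. ERCC6 on chromosome 10, with 28 such neighbours of which 12 were higher and 13 lower, was above 14.3% of them, and ERCC8 on chromosome 5, with 45, was above 86.7%.

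**Figure D2:**
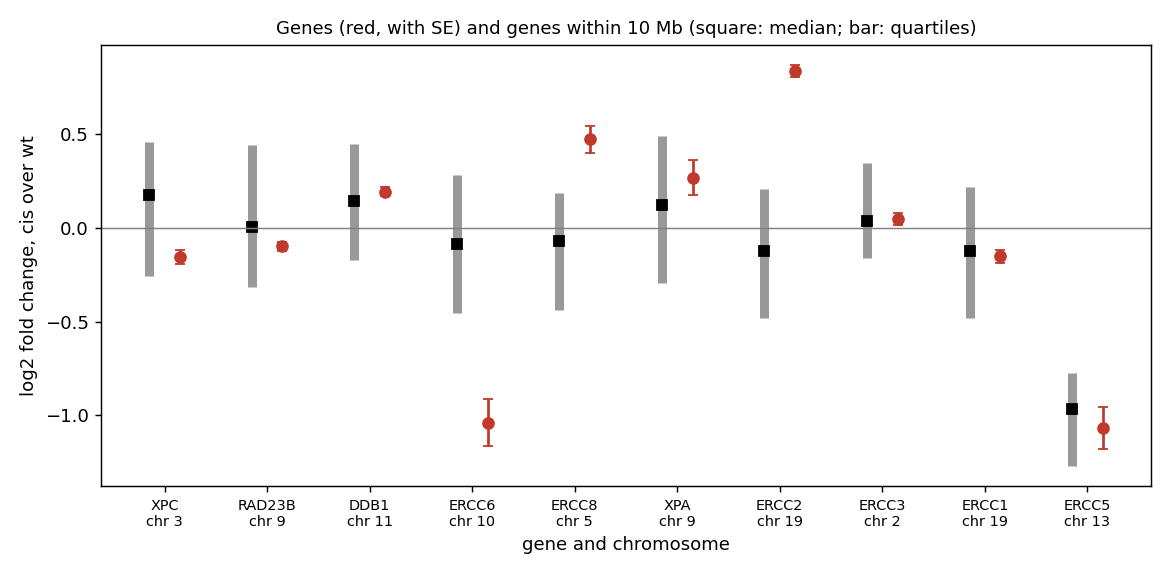
Log2 fold change between cis and wt in complete medium of each of the 10 genes (red points with SE, from 3 libraries a line) beside the median and quartiles of the tested genes with a mean of at least 5 CPM within 10 Mb on the same chromosome. ERCC5 sits at -1.07, inside the quartiles of its 33 neighbours (-1.27 to -0.77), whereas ERCC2 at 0.84 lies above the upper quartile of its neighbours.

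The next comparison set cis SSP against cis, both in complete medium without drug. Of the 10 genes, 2 were called, both lower, beside 29.1% of the 13714 genes tested, 15.8% higher and 13.3% lower, and the cis libraries of this comparison also served in the one above. The 10 genes had a median log2 fold change of 0.0057, against 0.010 for all genes tested. ERCC2 stood at 118, 101 and 106 CPM in the cis SSP libraries, all below the cis libraries (146 to 150.2), a log2 fold change of -0.46 ± 0.094 (SE, edgeR adjusted p = 0.0126). DDB1 stood at 461, 502 and 487 CPM against 602, 613 and 640.4 CPM in cis, again without overlap, at -0.37 ± 0.10 (SE, edgeR adjusted p = 0.0381). The call of DDB1 held in 5 of 13 alternatives and that of ERCC2 in 10 of 13. Several of the other genes moved with library 25, the first of the 3 values. ERCC8 did so little, at 0.0036 with it and -0.036 without it, and was called in neither fit. ERCC1 stood at 118, 70.0 and 72.0 CPM in cis SSP, so that 1 library was above and 2 below the cis range of 87.2 to 92.9. Without library 25, 7 of the 10 genes were called, beside 65.4% of all genes tested in that fit. ERCC2 was then lower by 0.50 ± 0.037 on the log2 scale (SE, edgeR adjusted p = 7.78e-14), ERCC1 was at -0.32 ± 0.044 (SE, edgeR adjusted p = 9.70e-08) and DDB1 at -0.31 ± 0.030 (SE, edgeR adjusted p = 5.06e-11). ERCC3, at -0.11, was lower too, whereas ERCC6, at 0.70 ± 0.15 (SE, edgeR adjusted p = 1.15e-04), RAD23B, at 0.14, and XPC, at 0.11, were called higher. XPA and ERCC5, which library 25 holds at 19.8 and 11.7 CPM, above the other 2 libraries of cis SSP, were not called with or without it.

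Carboplatin was compared first in complete medium. In wt cells ERCC1 about doubled, XPC rose as well, and ERCC2 fell. ERCC1 (ENSG00000012061, GRCh37 chr19:45910592-45982086, minus strand) went from 98.8, 95.5 and 99.6 CPM in wt to 203, 204 and 200.1 CPM in wt carbo. The 2 groups were far apart, with a 2.07-fold higher level and a log2 fold change of 1.05 ± 0.027 (SE, edgeR adjusted p = 1.41e-185). XPC (ENSG00000154767, GRCh37 chr3:14186647-14220121, minus strand), the sensor of global repair, went from 75.0, 75.5 and 74.2 to 115, 116 and 113 CPM, a 1.53-fold rise with a log2 fold change of 0.62 ± 0.032 (SE, edgeR adjusted p = 2.23e-67). ERCC2 went the other way, from 81.6, 79.4 and 83.3 to 67.0, 67.9 and 64.3 CPM, at -0.29 ± 0.036 (SE, edgeR adjusted p = 1.06e-14). The ATPase gene ERCC6 rose by 0.43 ± 0.095 on the log2 scale (SE, edgeR adjusted p = 1.06e-05), with 10.8, 10.3 and 11.9 CPM in wt carbo against 7.60 to 8.75 in wt. The other called genes moved less: DDB1 at 0.11 and ERCC3 at 0.10 were higher, and RAD23B at -0.080, ERCC5 at -0.21 and ERCC8 at -0.22 were lower. The call of ERCC5 held in 6 of 13 alternatives, and those of ERCC1 and XPC in all 13. XPA did not pass the test (-0.059, 95% interval -0.25 to 0.13). In all 9 of the 10 genes were called, 5 higher and 4 lower, beside 77.8% of the 14639 genes tested, 38.9% higher and 39% lower. For the 10 genes the median log2 fold change was 0.019, beside -0.00074 for all genes tested. When all 36 libraries shared 1 fit, 4 of the 10 genes were called (XPC, ERCC8, ERCC2 and ERCC1), beside 53.3% of all genes tested.

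In cis cells the same drug was followed by 4 calls among the 10 genes, 3 higher and 1 lower, beside 20.1% of the 13458 genes tested, 9.27% higher and 10.8% lower. ERCC1 went from 87.2, 88.0 and 92.9 CPM in cis to 171, 171 and 175 CPM in cis carbo, a 1.94-fold rise and a log2 fold change of 0.96 ± 0.033 (SE, edgeR adjusted p = 6.94e-19). XPC went from 65.6, 68.8 and 69.7 to 82.2, 85.1 and 84.1 CPM, at 0.31 ± 0.040 (SE, edgeR adjusted p = 1.06e-06), with no overlap between the groups. The TFIIH genes ERCC3 (0.12 ± 0.032 SE, edgeR adjusted p = 0.00593) and ERCC2 (-0.12 ± 0.031 SE, edgeR adjusted p = 0.00561) moved slightly and in opposite directions. ERCC2 in cis carbo (134 to 136 CPM) thus stood above its range in wt and in wt carbo. The median log2 fold change was 0.086 over the 10 genes and 0.0028 over all genes tested. With 1 fit over all 36 libraries, 2 of the 10 genes were called (XPC and ERCC1), beside 2.40% of all genes tested.

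In cis SSP cells, where library 25 is among the untreated ones, 1 of the 10 genes was called, beside 2.72% of the 13885 genes tested, 1.97% higher and 0.749% lower. This was XPC, which stood at 61.7, 72.1 and 73.7 CPM without and 112, 108 and 111 CPM with carboplatin, a log2 fold change of 0.71 ± 0.11 (SE, edgeR adjusted p = 0.0319). ERCC1 stood at 118, 70.0 and 72.0 CPM without and 144, 139.9 and 139 CPM with the drug, and its log2 fold change of 0.74 ± 0.21 (SE, edgeR adjusted p = 0.145) did not pass the test. The call of XPC held in 7 of 13 alternatives. Every treated library was nevertheless above every untreated one for ERCC1. Without library 25, 5 of the 10 genes were called, beside 41.2% of all genes tested, among them ERCC1 at 1.01 ± 0.037 (SE, edgeR adjusted p = 5.13e-18) and XPC at 0.62 ± 0.038 (SE, edgeR adjusted p = 4.46e-13). ERCC3 (0.23) and DDB1 (0.12) were then also higher and ERCC2 (-0.10) lower. Over the 10 genes the median log2 fold change was 0.11, and over all genes tested it was -0.016 with all libraries. A single fit over the 36 libraries gave another count: 5 of the 10 genes were called (XPC, XPA, ERCC2, ERCC3 and ERCC1), beside 18.5% of all genes tested.

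**Figure D3:**
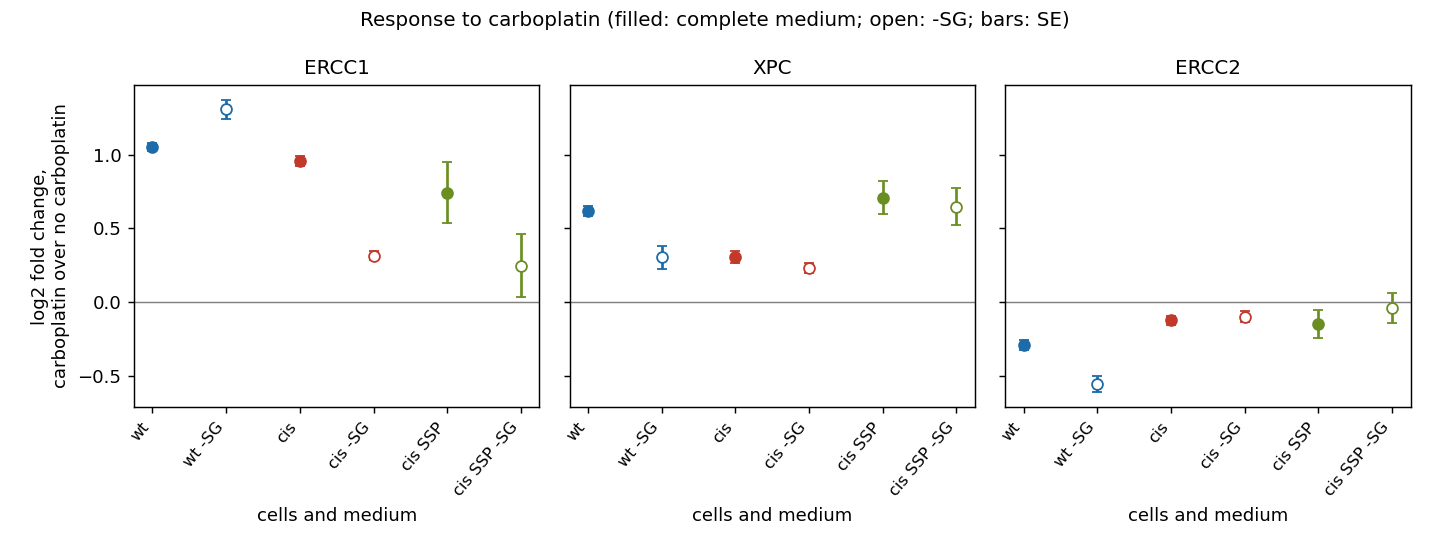
Log2 fold change with carboplatin (y axis) of ERCC1, XPC and ERCC2 in the wt, cis and cis SSP lines (x axis), filled points for complete medium and open points for medium without serine and glycine, with SE bars from 3 libraries a condition. ERCC1 lies at 1.05 in wt and 0.96 in cis in complete medium, and at 1.31 in wt but 0.32 in cis without serine and glycine.

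The difference in response between lines was tested as an interaction. Between cis and wt, 4 of the 10 genes had a called difference in their response to carboplatin, 2 in each direction, beside 57.6% of the 15300 genes tested, 30.3% higher and 27.2% lower. The XPC response was smaller in cis by 0.30 ± 0.050 on the log2 scale (SE, edgeR adjusted p = 4.18e-07) and the DDB1 response by 0.12 ± 0.032 on the log2 scale (SE, edgeR adjusted p = 0.00103). ERCC2 (0.17 ± 0.046 SE, edgeR adjusted p = 0.00103) and ERCC5 (0.40 ± 0.17 SE, edgeR adjusted p = 0.0338) had the opposite sign, ERCC2 falling less far in cis. The call of ERCC5 held in 9 of 19 alternatives, and that of XPC in all 19. For ERCC1 the difference was -0.089 ± 0.042 (SE, edgeR adjusted p = 0.0660) and did not pass the test, with a 95% interval, not adjusted for the number of genes, of -0.17 to -0.0064. When all 36 libraries shared 1 fit, 1 of the 10 genes was called (XPC), beside 31.4% of all genes tested. Between cis SSP and cis, none of the 10 genes was called by edgeR, beside 0.506% of the 14428 genes tested, 0.423% higher and 0.0832% lower, with 1 of the 10 at an unadjusted p under 0.05. DESeq2's test called none of the 10 either, beside 218 genes in all, where edgeR called 73. These 218 are 0.377% of all 57820 genes, a base without the filter on low counts. Without library 25 edgeR called 2 of the 10, beside 14.3% of all genes tested: XPC, whose response was larger in cis SSP by 0.32 ± 0.055 (SE, adjusted p = 4.20e-05), and DDB1, at 0.15 ± 0.038 (SE, adjusted p = 0.00565).

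Other features of the libraries moved with carboplatin. In wt carbo all 16 genes of a proliferation list were called lower, with a median log2 fold change of -1.55, and in cis carbo 13 of the 16 were lower, with a median of -0.19. The summed level of the 7 markers of other cell types, mostly COL1A1, was 163 to 166 CPM in wt and 856 to 868 CPM in wt carbo, but 4.89 to 5.72 CPM in cis and 3.27 to 4.39 CPM in cis carbo. The summed level of the 8 epithelial markers was 1.78 to 2.42 CPM in wt and 11.7 to 13.3 CPM in wt carbo. CD3E was at 0 and PTPRC at or below 0.0652 CPM in all libraries. Whether growth state or the level of stromal or epithelial genes had a part in the change of ERCC1, XPC or ERCC2 was not tested.

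**Figure D4:**
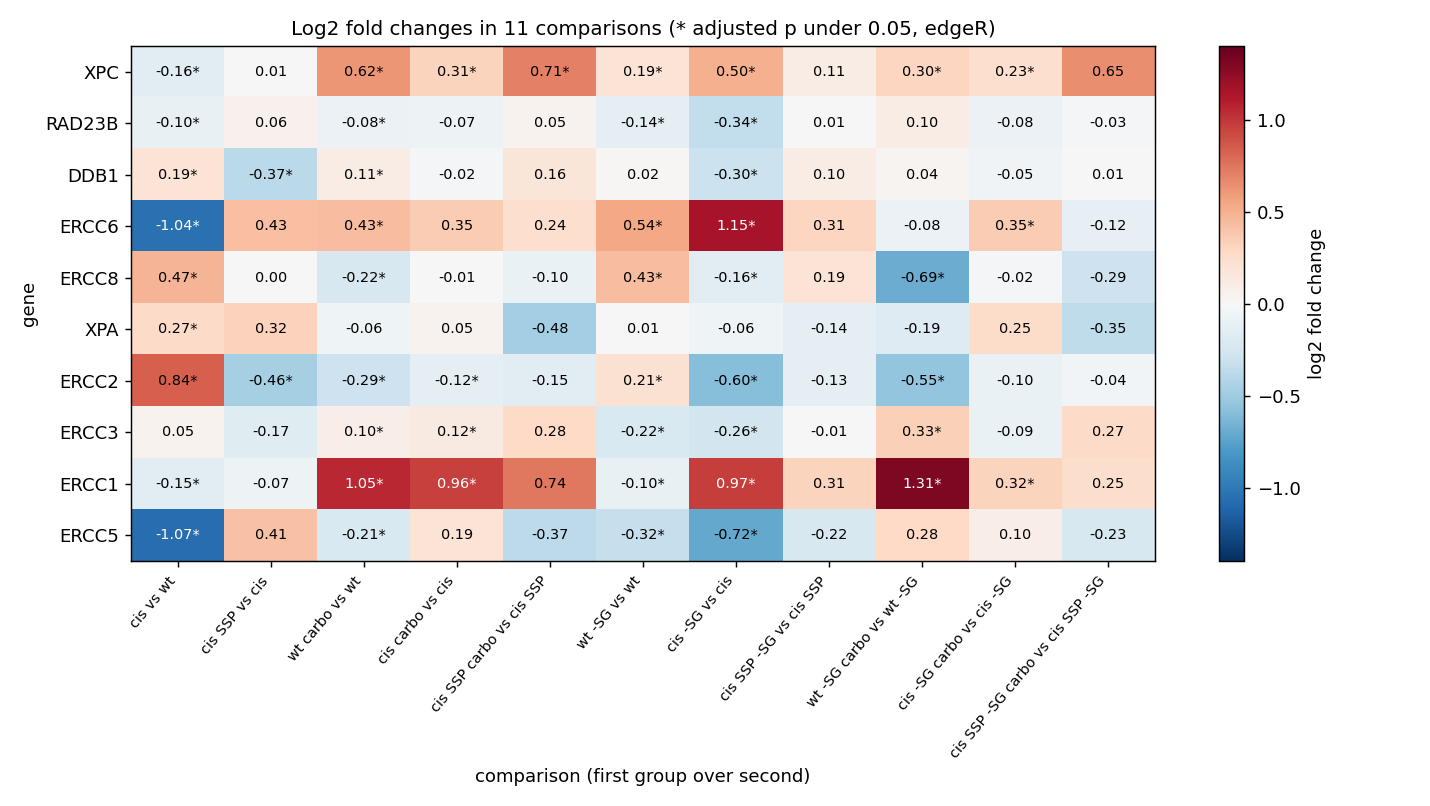
Log2 fold change (colour) of each of the 10 genes (rows) in the 11 comparisons between pairs of conditions (columns, 3 libraries a condition), with an asterisk where edgeR's adjusted p was under 0.05. ERCC1 is above 0 in each of the 6 columns with carboplatin, with values from 0.25 in cis SSP -SG to 1.31 in wt -SG, and 4 of these 6 carry an asterisk.

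Deprivation of serine and glycine gave a different picture in the 2 lines without drug. In wt, 8 of the 10 genes were called, 4 in each direction, beside 49.2% of the 14284 genes tested, 24.1% higher and 25.1% lower, and the wt libraries are those used above. The sizes were modest: ERCC6 at 0.54 ± 0.15 (SE, edgeR adjusted p = 0.0129) and ERCC8 at 0.43 ± 0.073 (SE, edgeR adjusted p = 4.93e-05), both genes of transcription-coupled repair, were the highest, followed by ERCC2 at 0.21 and XPC at 0.19. ERCC1 went from 98.8, 95.5 and 99.6 to 93.3, 89.7 and 90.5 CPM, slightly lower at -0.10 ± 0.035 (SE, edgeR adjusted p = 0.0203). RAD23B at -0.14, ERCC3 at -0.22 and ERCC5 at -0.32 were lower as well. The 10 genes had a median log2 fold change of 0.016, against 0.0085 for all genes tested, and all 16 proliferation genes were called lower, with a median of -0.39. With 1 fit over all 36 libraries, 3 of the 10 genes were called (ERCC8, ERCC2 and ERCC3), beside 16.9% of all genes tested.

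In cis the same change of medium was followed by larger differences, with ERCC1 and ERCC6 rising about 2-fold and ERCC2 falling. Here 9 of the 10 genes were called, 3 higher and 6 lower, beside 75% of the 14122 genes tested, 37.6% higher and 37.4% lower. ERCC1 went from 87.2, 88.0 and 92.9 CPM in cis to 165, 165 and 173 CPM in cis -SG, 1.96-fold higher, with a log2 fold change of 0.97 ± 0.035 (SE, edgeR adjusted p = 2.96e-28). That level without drug was close to the 171 to 175 CPM of cis carbo in complete medium. ERCC6 went from 3.71, 4.81 and 3.50 to 10.2, 7.47 and 8.08 CPM, 2.22-fold higher at 1.15 ± 0.13 (SE, edgeR adjusted p = 1.12e-09), and so reached the range of wt (7.60 to 8.75 CPM), though on few counts. XPC rose as well, from 65.6, 68.8 and 69.7 to 92.9, 92.6 and 91.7 CPM, at 0.50 ± 0.039 (SE, edgeR adjusted p = 6.11e-16). ERCC2 went from 146, 150.2 and 147 to 92.5, 91.2 and 96.5 CPM, at -0.60 ± 0.034 (SE, edgeR adjusted p = 1.28e-20), and its cis -SG libraries lay within the range of wt -SG (90.8 to 96.7 CPM). The higher ERCC2 of cis over wt was thus a measurement in complete medium, and no test of cis -SG against wt -SG was made. ERCC5 fell to 3.82, 3.03 and 2.85 CPM (-0.72 ± 0.15 SE, edgeR adjusted p = 2.74e-05), its lowest level in the series. RAD23B (-0.34), DDB1 (-0.30), ERCC3 (-0.26) and ERCC8 (-0.16) were called lower and XPA (-0.065) was not called. The call of ERCC8 held in 6 of 13 alternatives. For the 10 genes the median log2 fold change was -0.21, beside 0.012 for all genes tested, and 15 of 16 proliferation genes were called lower beside them, with a median of -0.84. The summed level of the 8 epithelial markers was 16.5 to 19.6 CPM in cis and 43.5 to 46.2 CPM in cis -SG. Whether growth state or the epithelial genes had a part in these differences was not tested.

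The interaction of line and medium was called for 6 of the 10 genes, 2 in the higher and 4 in the lower direction, beside 54% of the 15418 genes tested, 27.1% higher and 26.9% lower. ERCC1 responded more in cis by 1.09 ± 0.049 (SE, edgeR adjusted p = 1.19e-20) and XPC by 0.33 ± 0.050 (SE, edgeR adjusted p = 7.41e-07). ERCC2 differed by -0.79 ± 0.049 (SE, edgeR adjusted p = 1.28e-16), being higher without serine and glycine in wt and lower in cis. ERCC8, called higher in wt and lower in cis, differed by -0.57 ± 0.10 (SE, edgeR adjusted p = 8.87e-06), DDB1 by -0.31 and RAD23B by -0.19. ERCC6 rose in both lines, and its difference of 0.63 ± 0.26 (SE, edgeR adjusted p = 0.0550) did not pass the test.

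In cis SSP none of the 10 genes was called between -SG and complete medium by edgeR, where 3 of 13736 genes, or 0.0218%, passed the test. DESeq2's test called none of the 10 either, beside 105 genes in all, or 0.182% of all 57820 genes without the filter on low counts. At an unadjusted p under 0.05 there were 907 genes and none of the 10. Both groups hold a library that stood apart, and ERCC1 shows it: 118, 70.0 and 72.0 CPM in cis SSP and 85.4, 146 and 90.3 CPM in cis SSP -SG, with library 25 first among the former and library 32 second among the latter. Without libraries 25 and 32, with 2 libraries left in each group, 5 of the 10 genes were called, beside 35.9% of all genes tested. ERCC1 was then higher by 0.32 ± 0.046 (SE, edgeR adjusted p = 4.34e-06), ERCC8 by 0.26, XPC by 0.14 and DDB1 by 0.13, and ERCC2 was lower at -0.14. The median log2 fold change was 0.055 over the 10 genes and -0.0035 over all genes tested with all libraries.

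Carboplatin was last compared within medium lacking serine and glycine. In wt -SG, 5 of the 10 genes were called, 3 higher and 2 lower, beside 68.9% of the 14467 genes tested, 34.3% higher and 34.6% lower. ERCC1 went from 93.3, 89.7 and 90.5 CPM to 213, 246 and 215 CPM, 2.47-fold higher and at 1.31 ± 0.065 (SE, edgeR adjusted p = 1.58e-07) the widest change of the gene in the 11 comparisons between pairs of conditions. The second library was the highest of the 3 treated ones, and all 3 were far above the untreated. XPC went from 87.0, 85.2 and 83.7 to 109.9, 92.5 and 113 CPM, at 0.30 ± 0.080 (SE, edgeR adjusted p = 0.00727), with the same second library, library 11, lowest. With 1 library left out in turn, XPC ran from 0.25 to 0.39 and ERCC1 from 1.24 to 1.34, both called in all 6 fits. ERCC3 rose by 0.33 ± 0.053 on the log2 scale (SE, edgeR adjusted p = 3.49e-04). ERCC2 fell to 66.6, 62.2 and 63.1 CPM (-0.55 ± 0.057 SE, edgeR adjusted p = 1.90e-05), and ERCC8, the receptor subunit of the transcription-coupled ligase, to 11.8, 10.6 and 11.8 CPM (-0.69 ± 0.088 SE, edgeR adjusted p = 7.82e-05). Over the 10 genes the median log2 fold change was 0.073, and over all genes tested it was -0.0070. As in complete medium, other features moved with the drug: 14 of the 16 proliferation genes were called lower, with a median of -1.28, and the summed level of the 7 markers of other cell types was 97.7 to 103 CPM without and 862 to 1015 CPM with it. The 8 epithelial markers summed to 2.02 to 2.25 CPM without and 15.1 to 15.9 CPM with it, and the part of all these in the changes above was not tested.

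In cis -SG, 3 genes were called, all higher, beside 22.5% of the 14476 genes tested, 10.9% higher and 11.6% lower. ERCC1 went from 165, 165 and 173 CPM, already high without drug, to 210.3, 203 and 209.9 CPM, at 0.32 ± 0.032 (SE, edgeR adjusted p = 2.42e-05). XPC went from 92.9, 92.6 and 91.7 to 109.9, 104 and 109.7 CPM, at 0.23 ± 0.036 (SE, edgeR adjusted p = 4.74e-04). In both genes every treated library was above every untreated one, libraries 23 and 24 being the last 2 of the treated values. ERCC6 was called at 0.35 ± 0.12 (SE, edgeR adjusted p = 0.0424). Without libraries 23 and 24, which leaves 1 treated library assumed to vary like the untreated ones, ERCC1 was at 0.34 ± 0.041 (SE, edgeR adjusted p = 7.14e-10) and XPC at 0.26 ± 0.048 (SE, edgeR adjusted p = 2.27e-05), while ERCC6 at 0.28 ± 0.14 (SE, edgeR adjusted p = 0.199) lost its call, in a fit that called 14.5% of all genes tested. The 10 genes had a median log2 fold change of 0.040, against 0.0034 for all genes tested, and 15 of the 16 proliferation genes were called lower, with a median of -0.33. A single fit over the 36 libraries gave another count: none of the 10 genes was called by edgeR, beside 6.84% of all genes tested.

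In cis SSP -SG none of the 10 genes was called by edgeR, beside 1.47% of the 13541 genes tested, 1.17% higher and 0.295% lower, with 3 of the 10 and 2092 genes in all at an unadjusted p under 0.05. DESeq2's test called 1 of the 10, beside 576 genes in all, where edgeR called 199. These 576 are 0.996% of all 57820 genes, a base without the filter on low counts. XPC stood at 80.9, 62.6 and 78.3 CPM without and 113, 118 and 112 CPM with the drug, at 0.65 ± 0.13 (SE, edgeR adjusted p = 0.0773), and ERCC1 at 85.4, 146 and 90.3 and 123, 123 and 131 CPM, at 0.25 ± 0.21 (SE, edgeR adjusted p = 0.619). For ERCC1 the groups overlapped because of library 32 alone. A fit that left out library 32 called 4 of the 10 genes, beside 41.1% of all genes tested: ERCC1 at 0.54 ± 0.040 (SE, edgeR adjusted p = 1.35e-09), XPC at 0.55 ± 0.041 (SE, edgeR adjusted p = 1.48e-09), ERCC3 at 0.25 and ERCC8 at -0.27. For the 10 genes the median log2 fold change was -0.032, beside -0.021 for all genes tested with all libraries. When all 36 libraries shared 1 fit, 3 of the 10 genes were called (XPC, ERCC8 and ERCC3), beside 17.1% of all genes tested.

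Whether the response to carboplatin depended on the medium was tested within wt and within cis, a pair of interaction tests added after the data had been seen. In cis 2 of the 10 genes were called, beside 12.1% of the 14797 genes tested, 5.91% higher and 6.17% lower: the ERCC1 response was smaller without serine and glycine by 0.64 ± 0.047 on the log2 scale (SE, edgeR adjusted p = 5.08e-10), and the ERCC3 response by 0.21 ± 0.047 on the log2 scale (SE, edgeR adjusted p = 0.00332). Without libraries 23 and 24 the cis interaction was -0.63 ± 0.053 (SE, edgeR adjusted p = 4.60e-11) for ERCC1 and -0.21 ± 0.056 (SE, edgeR adjusted p = 0.0132) for ERCC3, beside 8.72% of all genes called. In wt 7 of the 10 were called, 4 in the higher and 3 in the lower direction, beside 27.7% of the 15247 genes tested, 14.6% higher and 13.1% lower. There the ERCC1 response was larger without serine and glycine by 0.25 ± 0.069 (SE, edgeR adjusted p = 0.0134), as were those of RAD23B (0.18), ERCC3 (0.23) and ERCC5 (0.48), whereas those of ERCC2 (-0.27), ERCC8 (-0.48) and XPC (-0.32) were lower. With 1 library left out in turn, the XPC difference ran from -0.38 to -0.23, called in all 12 fits. The call of ERCC5 held in 12 of 19 alternatives. ERCC1 thus differed by medium in opposite directions in the 2 lines, and the difference between these differences was not tested. With 1 fit over the 36 libraries, the wt interaction was called for 3 of the 10 genes (ERCC8, ERCC2 and ERCC3), beside 9.20% of all genes tested, and the cis interaction for none, beside 0.672%, ERCC1 having an edgeR adjusted p of 0.170 there.

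The other genes of the pathway were counted from a list of 42, of which 41 were tested. These take in the remaining recognition factors, the other TFIIH subunits, the incision and RPA genes, and the polymerases, clamp loader and ligases that fill the gap. Between cis and wt 19 were called higher and 17 lower, beside 39.4% higher and 39.1% lower of all genes tested. PCNA, the sliding clamp of gap filling, at 0.76 and ERCC4, the catalytic partner of ERCC1, at 0.52 were among the higher. MNAT1, a TFIIH subunit, at -1.46 and the ligase scaffold CUL4A at -0.91 were among the lower. CUL4A lies on chromosome 13, as ERCC5 does. With carboplatin in wt 9 were higher and 25 lower, beside 38.9% higher and 39% lower of all genes tested. Their median log2 fold change was -0.28, where that of all genes was -0.00074. The fall was mostly among the 18 gap-filling genes, 15 of them lower, such as POLE2 (-1.74), RFC5 (-1.50) and RFC4 (-1.40). The 3 gap-filling genes called higher included POLD4 (1.17) and POLE3 (0.56). Most of the genes that fill the excised gap also serve DNA replication. In cis carbo 2 were higher and 7 lower, beside 9.27% higher and 10.8% lower of all genes tested. DDB2, the sensor partner of DDB1 and a target of p53, was at 0.65 there. In cis SSP carbo none of the 41 was called by edgeR, where 1 of the 10 was, beside 2.72% of all genes tested. Without library 25, 10 were higher and 11 lower, beside 41.2% of all genes tested.

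Without serine and glycine, 9 of the 41 were higher and 20 lower in wt, beside 24.1% higher and 25.1% lower of all genes tested. In cis 6 were higher and 29 lower, with a median of -0.30, beside 37.6% higher and 37.4% lower of all genes tested. In cis -SG the lower ones included DDB2 (-0.98) and the clamp loader subunit RFC5 (-0.95), and the higher ones included XAB2 (0.53), a binding partner of XPA. Of the list of 10, 3 were called higher there (ERCC1, ERCC6 and XPC), near the 37.6% of all genes tested. In cis SSP -SG none was called by edgeR, beside 0.0218% of all genes tested. Without libraries 25 and 32, 9 were higher and 7 lower, beside 35.9%. With carboplatin added to cis SSP in that medium 1 was higher (DDB2, 0.90), beside 1.47% of all genes tested. Without library 32, 9 were higher and 8 lower, beside 41.1%. In wt -SG carbo 9 were higher and 19 lower, beside 34.3% higher and 34.6% lower of all genes tested. In cis -SG carbo 3 were higher and 9 lower, beside 10.9% and 11.6%, with DDB2 at 0.58. The median of the 41 there was -0.064, and -0.080 without libraries 23 and 24. In cis SSP against cis 6 were higher, among them the ligase LIG1 (0.66), and 2 lower, LIG3 (-0.63) and the TFIIH subunit GTF2H1 (-0.34). Of all genes tested 15.8% were higher and 13.3% lower. Without library 25, 10 of the 41 were higher and 11 lower, beside 65.4% of all genes tested.

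Over the 12 condition means some of the 10 genes varied alike, as a description over points that share lines and media. ERCC1 and XPC had a Pearson r of log2(CPM + 1) of 0.75, ERCC8 and ERCC2 of 0.81, and ERCC8 and XPA of 0.77, whereas ERCC6 and ERCC2 had an r of -0.84. Without libraries 25 and 32 these were 0.75, 0.78, 0.71 and -0.84 in the same order. Among 10636 genes with a mean of at least 5 CPM, the patterns closest to that of ERCC5 were those of TGIF2 (0.986), ARPC1A (0.983) and ZC3HC1 (0.982). For ERCC6 they were DCP1B (0.978), FBXO38 (0.956) and THNSL2 (0.954). Without libraries 25 and 32 the r of these 6 genes ran from 0.946 to 0.984.

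Some of the 10 genes share exonic bases with other genes, and the strand setting of the counting is not given in the sources used here. ERCC1 overlaps POLR1G on the opposite strand over 47.1% of its canonical transcript, and POLR1G had 182 to 476 counts a library, 13.1% of those of ERCC1 in all. POLR1G was not called in wt carbo against wt (-0.10, edgeR adjusted p = 0.231) or in cis -SG against cis (0.13, edgeR adjusted p = 0.0609), where ERCC1 rose, was called slightly higher in cis carbo (0.20, edgeR adjusted p = 0.0242) and was higher in cis than in wt (0.67, edgeR adjusted p = 1.41e-11), where ERCC1 was lower. ERCC5 shares 91.7% of its canonical bases with the readthrough gene BIVM-ERCC5 on the same strand, to which no count was assigned in any library. Reads of the shared exons may thus have been left uncounted, and the level of ERCC5 and its place among the 10 genes are uncertain. Its spread and fold changes rest on the reads that were counted. XPC overlaps XPC-AS1, with 0 to 8 counts, and ERCC2 overlaps KLC3, with 0 to 25 counts. DDB1 overlaps TKFC on the opposite strand over 493 exonic bases, none of them in its canonical transcript. TKFC had 344 to 965 counts a library, 6.49% of those of DDB1 in all. Its mean was 25.6 CPM in cis and 47.9 CPM in cis SSP, where DDB1 was lower. ERCC8 overlaps GNL3LP1, with 0 to 10 counts, and ERCC8-AS1, with 0 to 3, and ERCC6 overlaps an antisense RNA with 0 to 1. RAD23B, XPA and ERCC3 overlap no other annotated exon.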

How the data were processed

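RNA was measured in 36 libraries, 3 for each of 12 conditions, read from the labels. The authors extracted total RNA, purified mRNA on beads, made libraries with a SENSE Total RNA-Seq kit, aligned reads with STAR to GRCh37.p13, counted exons with HTSeq and deposited raw counts per gene. Strand and multi-mapping settings are not given in the sources used here, which bears on overlapping genes. Symbols matched 55538 of the 57820 gene rows, and 3 summary rows without a gene were left out of library sizes and tests; they held 4.21% to 17.9% of a library's counts as reads outside exons.

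Counts were tested with edgeR 4.0.16 in R 4.3.3 (TMM, filterByExpr, estimateDisp, robust glmQLFit, glmQLFTest), with only the libraries of the groups compared in a fit, and p-values were adjusted by Benjamini-Hochberg over all genes tested. The SE of a log2 fold change is its size over the square root of F. CPM used TMM factors of 16677 filtered genes over 36 libraries, and levels between genes were compared only per kilobase of canonical transcript. Positions, lengths and overlaps of genes came from a later GENCODE annotation, mapped to GRCh37, than the one the authors counted on. The count totals per library, 13074937 to 20441582, limit the precision of ERCC5, ERCC6, XPA and ERCC8. Alternatives were the Wald test of DESeq2 1.42.0, edgeR with DESeq2 size factors, edgeR scaled by totals alone, the test with no filter or with at least 10 counts in every library, removal of a trend on length, 1 fit over all libraries, and leaving libraries out. A pair of interaction tests of drug by medium was added after seeing the data, as were the spreads, correlations and counts of other repair genes without single libraries. The 10 genes and all lists were chosen with earlier results of these data known. All 10 were named in each comparison, and of the 42 other repair genes at most 3 called genes in each direction with the widest change. The fit was tested on simulated counts with 200 changed genes: at the spread of cis against wt, where 14289 genes were tested, edgeR recovered 83 of 100 genes changed by 0.5 on the log2 scale, and at that of cis SSP against cis, where 13729 were tested, 8 of 100. Tables and figures were made with Python 3.11.15, pandas 2.3.3 and matplotlib 3.10.9.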

Additional observations from a re-analysis of the deposited data

Results flagged for a closer look

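These differences of a response between lines or media passed edgeR's interaction test, adjusted over all genes tested, and are given on the log2 scale. For the response to carboplatin in complete medium, cis minus wt, they were -0.30 for XPC, -0.12 for DDB1, 0.17 for ERCC2 and 0.40 for ERCC5 (called in 9 of 19 alternatives). For the response to deprivation, cis minus wt, they were 1.09 for ERCC1, 0.33 for XPC, -0.19 for RAD23B, -0.31 for DDB1, -0.57 for ERCC8 and -0.79 for ERCC2. For the response to carboplatin in wt, medium without serine and glycine minus complete medium, a test added after the data were seen, they were 0.25 for ERCC1, 0.18 for RAD23B, 0.23 for ERCC3, 0.48 for ERCC5 (called in 12 of 19 alternatives), -0.27 for ERCC2, -0.48 for ERCC8 and -0.32 for XPC. For the same difference in cis they were -0.64 for ERCC1 and -0.21 for ERCC3. Groups of 3 libraries are too small for a test of single libraries that stand apart.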

How the results depend on the processing

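The number of the 10 genes called by edgeR moved by more than 1.5 times under these alternatives, and the cause was not tested. The share of all genes called in the fit over 36 libraries stands beside its counts above. With 1 fit over the 36 libraries it was 5 in cis against wt, 4 with carboplatin in wt, 2 in cis, 5 in cis SSP, 3 without serine and glycine in wt, 0 with carboplatin in cis -SG and 3 in cis SSP -SG, 1 for the carboplatin interaction of cis and wt, and 3 in wt and 0 in cis for the drug by medium interactions. Total counts without TMM gave 1 in cis SSP against cis (28.8% of all genes tested) and 0 with carboplatin in cis SSP (2.69%). No filter gave 1 in cis SSP against cis, beside 13.9% of all genes tested. The DESeq2 Wald test called 2 with carboplatin in cis SSP and 1 in cis SSP -SG, beside 722 and 576 genes in all, where edgeR called 377 and 199. The DESeq2 counts are 1.25% and 0.996% of all 57820 genes, a base without the filter on low counts. Removal of the length trend gave 8 with carboplatin in wt -SG, beside 70.9% of all genes tested. In cis SSP -SG against cis SSP 5 were called without libraries 25 and 32, beside 35.9%.

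With 1 library left out, the count ran from 8 to 10 in cis against wt, beside 75.3% to 76.9% of all genes tested, and from 0 to 7 in cis SSP against cis. In the latter it was 7 without library 25, 1 without either other cis SSP library and 0 without any 1 cis library, while the share of all genes called was 65.4% without library 25, 23.5% and 21.6% without the other cis SSP libraries and 14.3% to 14.6% without a cis library. With carboplatin in complete medium it ran from 7 to 9 in wt, 4 to 5 in cis and 0 to 5 in cis SSP. The share of all genes called was 74.2% to 75.2% in wt and 12.8% to 18.7% in cis. In cis SSP the count was 5 without library 25, beside 41.2%, and 0 without any other, beside 0.0636% to 0.46%. For deprivation it ran from 6 to 8 in wt, 8 to 9 in cis and 0 to 0 in cis SSP, beside 41.9% to 48.3%, 71.8% to 72.8% and 0% of all genes tested. With carboplatin in -SG medium it ran from 5 to 7 in wt, 2 to 5 in cis (5 without cis -SG carbo replicate 1) and 0 to 4 in cis SSP (4 without library 32). The share of all genes called was 63% to 73.3% in wt. It was 11.3% to 34.7% in cis, the highest without cis -SG carbo replicate 1. In cis SSP it was 41.1% without library 32 and 0% to 0.0291% without any other. For the interactions it ran from 3 to 5 (carboplatin, cis and wt), 0 to 2 (carboplatin, cis SSP and cis), 6 to 7 (deprivation), 6 to 8 (by medium, wt) and 2 to 3 (by medium, cis). In the same order the share of all genes called was 54.1% to 55.6%, 0.183% to 14.3%, 50.1% to 52%, 22.2% to 34.2% and 8.75% to 23.4%.

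Over all alternatives, 2234 log2 fold changes of single genes kept their side of the threshold, 73 passed it where they had not, 103 no longer passed it, and 0 changed sign among those called. No paired analysis was possible because the labels number the libraries in 1 run over the series and give no replicate number shared between conditions.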
